A study of Mus musculus with 34 samples.

Results

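The loss of p38 was examined in splenic dendritic cells (DCs) of Rag1-KO mice after anti-CD40, an antibody against the receptor CD40, through which T cells activate DCs. The arrays were taken by their titles alone: 3 arrays of genotype Rag1-/-/p38-/- (called p38-KO here) and 4 of genotype Rag1-/- (called controls), both of the series' first experiment. They make up 7 of the 34 arrays of the series. All 7 share the C57BL/6 strain, the Rag1 deletion, which leaves mice without mature T and B cells, and the anti-CD40 stimulus. The cells were total DCs, sorted fresh by FACS, and each array was hybridised with cDNA amplified from 1 to 5 ng of RNA. The labels do not say which p38 gene was deleted, in which cells, or what drove the deletion. They also give no age, no dose or time of the antibody, and nothing on how many animals stand behind the arrays. The p-values therefore reflect the scatter of these arrays alone, which may be technical.

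The p38 kinases are stress-activated MAP kinases that are switched on by the kinases Map2k3 and Map2k6 and act through kinases such as Mapkapk2 and through transcription factors. In DCs and macrophages they are known for stabilising cytokine mRNAs that carry AU-rich elements and for promoting cytokine output after Toll-like receptor or CD40 signals. CD40 itself signals through TRAF adaptors to NF-kB and MAP kinases and drives DC maturation, in which co-stimulatory ligands, cytokines and the lymph node homing receptor CCR7 are induced.

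Values are the authors' log2 signals normalized with RMA, which spanned 0.686 to 12.9 on these arrays, and a difference is the p38-KO mean minus the control mean in log2 units with its SE, so that 1 unit is a 2-fold difference. The 7 arrays were alike in scale, with a median over genes of 4.33 to 4.36. The labelled cell type was checked against its markers: Itgax (CD11c) lay at 10.0 to 10.54, Flt3 at 9.36 to 9.93 and the class II gene H2-Ab1 at 12.24 to 12.28 over the 7 arrays. Of the genes that define T and B cells, Cd3e lay at 4.46 to 4.88 and Cd3d at 4.13 to 4.51. Cd79a lay at 3.81 to 4.44 and Pax5 at 3.96 to 4.32. Other lymphocyte genes lay higher, with the B-cell genes Ms4a1 at 5.72 to 6.07 and Cd79b at 5.72 to 7.21. The T-cell gene Cd5 lay at 5.86 to 7.61.

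The single arrays did not spread evenly. The first principal component held 48.1% of the variance and separated control arrays 3 and 4, at 34.99 and 23.68, from the other two controls, at -7.21 and -7.15, while the p38-KO arrays lay at -14.97, -17.52 and -11.81. On this axis controls 3 and 4 were thus farther from controls 1 and 2 than these were from the p38-KO arrays. Controls 3 and 4 both lay above controls 1 and 2 in 4289 genes (19.3%) and both below in 3786 (17.1%). The p38-KO arrays were tighter, with a median SD per gene of 0.0908 against 0.112 in the controls. The labels give the 4 controls 1 experiment name and no batch, so results are also given with each pair of controls left out.

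**Figure D1:**
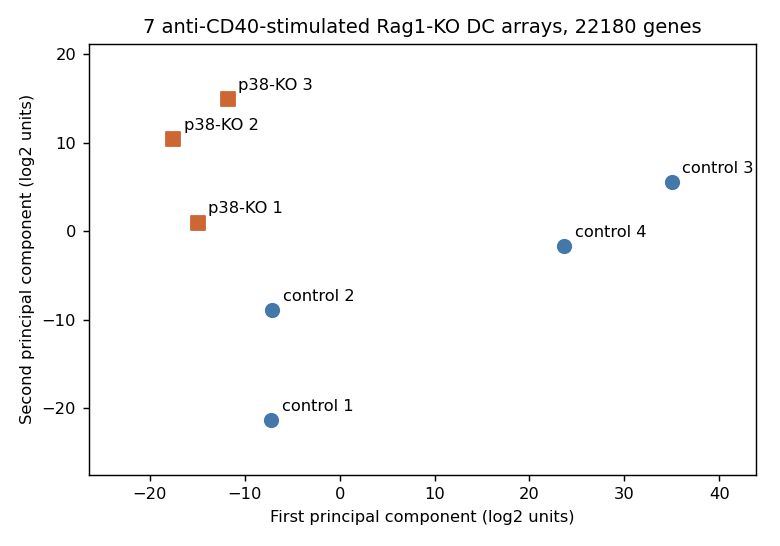
First against second principal component of the 7 anti-CD40-stimulated arrays, computed on the log2 signals of 22180 genes; circles are controls, squares are p38-KO arrays, numbers are replicates. Controls 3 and 4 lie at 34.99 and 23.68 on the first component, and the other 5 arrays lie between -17.52 and -7.15.

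No single gene passed the test of the p38 effect: limma called 0 of 22180 genes (0.0%) at a Benjamini-Hochberg adjusted p under 0.05, and the lowest adjusted p was 0.142. At an unadjusted p under 0.05 there were 1868 genes (8.42%), 1003 higher (4.52%) and 865 lower (3.9%) in p38-KO DCs. An ordinary t statistic, array weights, an intensity trend with a robust prior and 3 other normalizations also called 0. A spread pooled over all 34 arrays of the series called 209 genes (0.942%), 57 higher and 152 lower, and 195 of them had groups that did not overlap. That fit assumes that these arrays vary like the other DC arrays of the series.

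The values themselves showed an uneven picture of large differences. The p38-KO and control arrays did not overlap in 1661 genes (7.49%), 863 higher (3.89%) and 798 lower (3.6%) in p38-KO. Of these, 91 genes (0.41%) differed by at least 2-fold, 80 of them lower (0.361%) and 11 higher (0.0496%). The 80 and 11 became 39 and 5 without controls 3 and 4, and 268 and 75 without controls 1 and 2. Both the number of genes without overlap and their balance depended on the scaling. As deposited, 48.0% of the 1661 were lower. The share was 37.4% of 2438 genes after quantile normalization, 37.5% of 2491 after median centring and 54.7% of 2332 after cyclic loess. In 1388 genes the highest p38-KO value equalled the lowest control value exactly, in 1498 the lowest p38-KO value equalled the highest control value, and both were counted as overlapping.

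**Figure D2:**
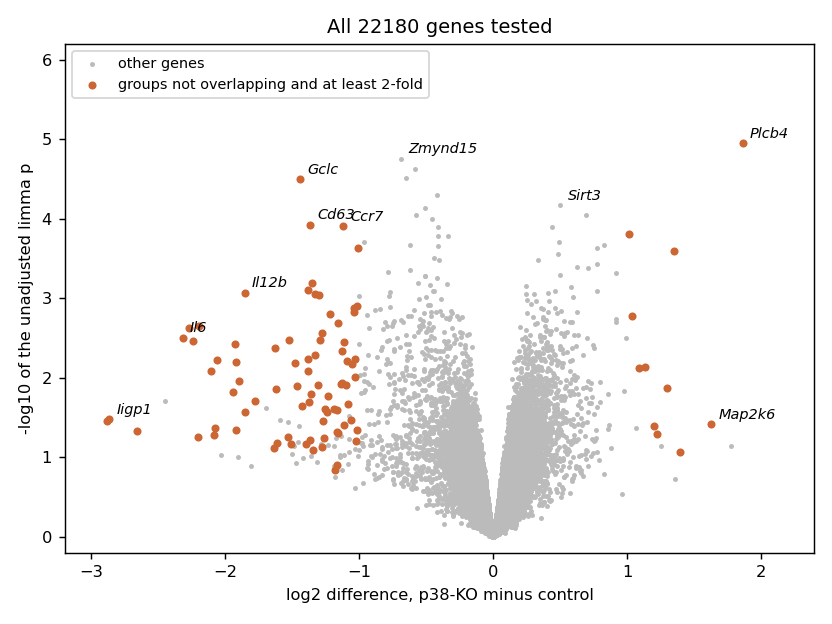
Each of the 22180 genes by its log2 difference (p38-KO minus control, x axis) and the -log10 of its unadjusted limma p (y axis). The 91 orange genes differ by at least 2-fold without overlap, 80 of them on the left and 11 on the right; Plcb4 has the smallest p.

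The p38 kinase genes come first as a check of the genotype. Mapk14 (p38 alpha) lay at 8.38, 8.48, 8.23 and 7.88 in controls 1 to 4 and at 8.54, 8.51 and 8.38 in the p38-KO arrays. The groups overlapped and the p38-KO mean was not lower, with a difference of 0.23 ± 0.14 (limma adjusted p = 0.657). Mapk11 (p38 beta) lay at 5.34, 5.29, 5.51 and 5.35 in the controls and at 5.28, 5.05 and 5.10 in the p38-KO arrays. Every p38-KO array was below every control, by 0.23 ± 0.08 in the mean, and this did not pass (adjusted p = 0.556). Mapk12 (p38 gamma) lay at 4.25 to 4.47 in the controls and at 4.28 to 4.36 in p38-KO, and Mapk13 (p38 delta) differed by -0.08 ± 0.23, with a sign that turned without controls 3 and 4 (0.14). Where the probes lie relative to the deleted part is not known, so these transcript levels neither bear out nor contradict the label. Rag2, the partner of Rag1, lay at 2.64 to 2.83 over the 7 arrays; the Rag1 probe set is shared with another gene and was not used.

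Kinases above p38 were described next. Map2k6 encodes MKK6, which phosphorylates p38, and it lay at 7.28, 7.14, 5.11 and 5.15 in the controls and at 8.05, 8.01 and 7.33 in the p38-KO arrays. All 3 p38-KO arrays were above all 4 controls, but controls 3 and 4 lay farther below controls 1 and 2 than the group means differed. The difference of 1.63 ± 0.63 was 0.59 without controls 3 and 4 and 2.67 without controls 1 and 2 (adjusted p = 0.583 over all 7 arrays). Txnip, which encodes an inhibitor of thioredoxin, lay at 9.13, 9.26, 9.39 and 8.99 against 9.77, 10.06 and 10.08, a difference of 0.77 ± 0.12 that was 0.77 with either pair of controls left out. Of the 19 upstream kinases and scaffolds measured, these 2 had groups that did not overlap, both higher in p38-KO (3.89% of all genes were). The list median was 0.10 against 0.00 over all genes.

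Members below p38 differed in a few genes, and their counts stand against 3.6% of all genes wholly lower and 3.89% wholly higher. Among 6 effector kinases only Mknk1, which phosphorylates the translation factor eIF4E, had groups apart (higher by 0.32 ± 0.11), while Mapkapk2 differed by -0.14 ± 0.08 and overlapped. Among 19 effector transcription factors and RNA-binding proteins 2 were wholly lower in p38-KO, every p38-KO array lying below every control. Cebpb, a basic leucine zipper factor of myeloid cells, lay at 6.35, 5.94, 6.30 and 6.09 against 5.72, 5.62 and 5.61, a difference of -0.52 ± 0.11. Ddit3 (CHOP), a stress-induced factor that p38 can phosphorylate, differed by -0.22 ± 0.07. Of 17 MAPK phosphatases, which switch MAP kinases off, 2 were wholly lower and 2 wholly higher. Dusp2, a nuclear phosphatase of activated immune cells, lay at 7.84, 8.13, 8.78 and 8.68 against 7.50, 7.50 and 7.52 (-0.85 ± 0.23), and was called lower with the spread of all 34 arrays. Dusp5, a phosphatase of ERK, lay at 8.32, 8.24, 8.13 and 8.37 against 7.61, 7.72 and 7.75 (-0.58 ± 0.07), whereas Dusp6, another ERK phosphatase, lay at 9.24, 9.35, 9.13 and 8.97 against 9.72, 9.66 and 9.57 (0.48 ± 0.09). Dusp22 was wholly higher by 0.28 ± 0.09. Dusp1, which acts on p38 and JNK, differed by -0.24 ± 0.09 with overlapping groups.

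The gene with the smallest p was Plcb4, which encodes a phospholipase C that G protein-coupled receptors activate. It lay at 5.32, 5.32, 4.76 and 4.91 in the controls and at 7.10, 6.93 and 6.78 in the p38-KO arrays. The groups were far apart, with a difference of 1.86 ± 0.16 or 3.64-fold (limma adjusted p = 0.142), and 1.62 and 2.10 with controls 3 and 4 or 1 and 2 left out. Plcb4 was among the 209 genes called with the spread of all 34 arrays.

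Other genes with the smallest p on the higher side differed less than Plcb4. Lyl1, a transcription factor of blood progenitors, was higher by 0.69 ± 0.08 and Itgad, the integrin subunit CD11d, by 0.83 ± 0.12. Sirt3, a mitochondrial deacetylase, was higher by 0.50 ± 0.06 and Casp2, a caspase, by 0.63 ± 0.10. Timm10b, a mitochondrial import factor, was higher by 0.92 ± 0.15, Prkab2, a subunit of AMP-activated kinase, by 0.59 ± 0.10, and Gtf2a2, a general transcription factor, by 0.44 ± 0.06. In each of these 7 genes all p38-KO arrays lay above all controls, and limma adjusted p ran from 0.189 to 0.340. Another probe set of Timm10b, of lower signal (4.88 to 5.11), differed by only 0.04 ± 0.07, so its rise rests on the probe set used.

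On the lower side Gclc, the catalytic subunit of the rate-limiting enzyme of glutathione synthesis, had the largest difference among the 15 genes of smallest p. It lay at 8.05, 7.89, 8.25 and 7.98 in the controls and at 6.90, 6.57 and 6.32 in the p38-KO arrays. This difference of -1.44 ± 0.15 (2.72-fold, limma adjusted p = 0.142) hardly moved with the controls used, being -1.37 without controls 3 and 4 and -1.52 without controls 1 and 2. Cd63, a tetraspanin of endosomes, lay at 8.83, 8.67, 9.39 and 9.16 against 7.54, 7.67 and 7.72. Its p38-KO arrays were all below the controls by more than the range of either group, with a difference of -1.37 ± 0.17 (adjusted p = 0.189).

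Signalling and stress genes with small p were lower by less. Zmynd15, a zinc finger repressor, was lower by 0.69 ± 0.06 on the log2 scale, Rgs1, which shortens G protein signals of chemokine receptors, by 0.58 ± 0.06, and Sqstm1, the autophagy receptor p62, by 0.65 ± 0.07 (adjusted p = 0.142 for each). Ets2, a transcription factor downstream of MAP kinases, lay at 7.70, 7.11, 7.24 and 7.32 against 6.34, 6.37 and 6.41. Bhlhe40, a repressor induced in activated immune cells, was lower by 0.46 ± 0.06. With predicted genes (such as those with Gm or Rik names) left aside, the 15 genes of smallest p on either side all had groups that did not overlap.

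**Figure D3:**
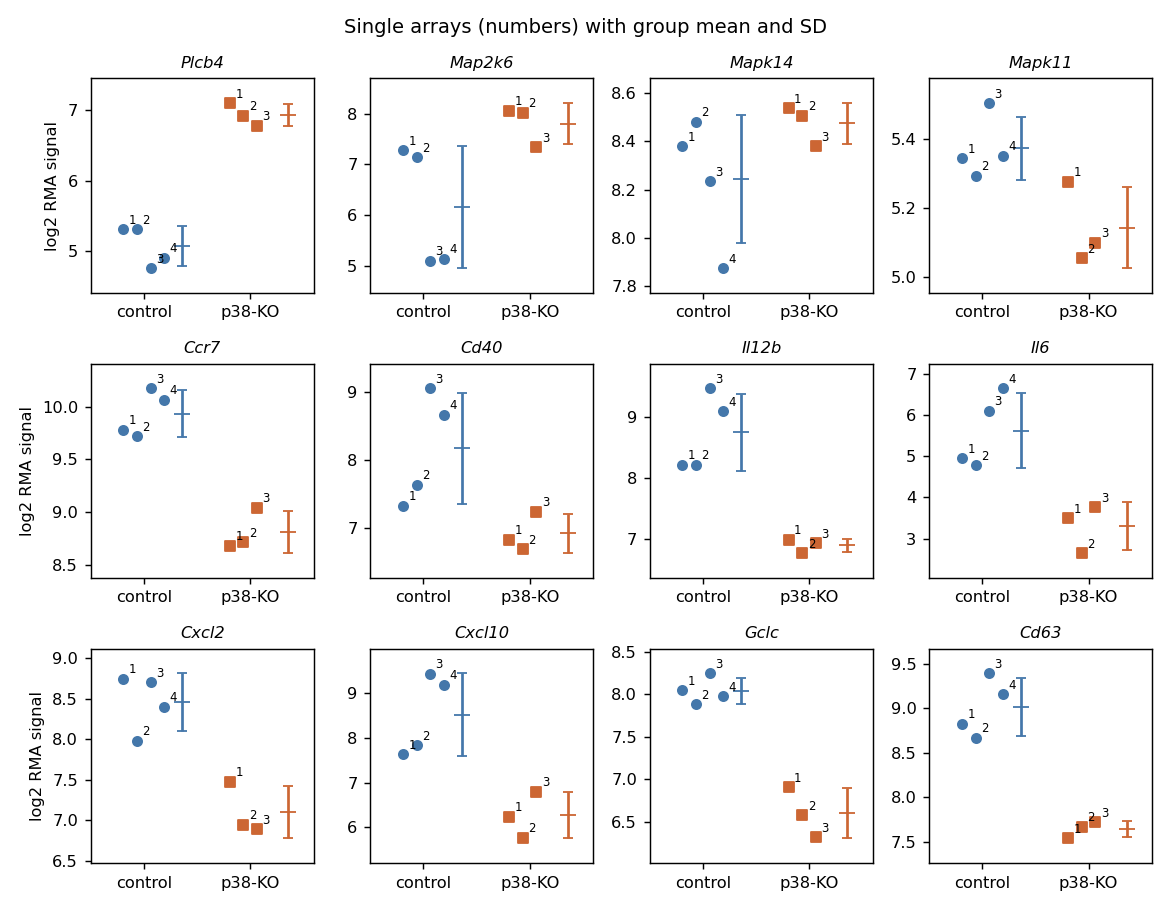
Log2 RMA signal of 12 genes on each array (circles, 4 controls; squares, 3 p38-KO arrays; small numbers give the replicate), with the group mean and SD as bars to the right; each panel has its own y axis. Plcb4, Gclc, Cd63 and Ccr7 separate the groups beyond the spread of either one, while in Map2k6, Cd40, Il12b, Il6 and Cxcl10 controls 3 and 4 stand apart from controls 1 and 2.

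Genes of DC maturation were lower in p38-KO DCs as a rule. Of 30 maturation and co-stimulation genes measured, 27 had a mean below the controls, against 10911 of all 22180 genes. Wholly below were 10, against 3.6% of all genes, and wholly above 0, and the list median was -0.44 against 0.00 over all genes. The median was -0.22 without controls 3 and 4 and -0.83 without controls 1 and 2, so its size depended on the controls used. With the spread of all 34 arrays, 7 of the 30 were called lower, against 0.685% of all genes, and 0 higher.

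Ccr7, which guides mature DCs to lymph nodes, lay at 9.78, 9.72, 10.17 and 10.06 in the controls and at 8.68, 8.71 and 9.04 in the p38-KO arrays. The groups were apart in every pairing of controls, with a difference of -1.12 ± 0.14 (2.18-fold, limma adjusted p = 0.189). Cd274, the inhibitory ligand PD-L1, lay at 8.39, 8.48, 9.26 and 9.08 against 7.49, 7.57 and 7.88 (-1.16 ± 0.24, adjusted p = 0.368). Cd40, the receptor that the antibody engages, lay at 7.33, 7.63, 9.06 and 8.67 against 6.82, 6.68 and 7.24. Its p38-KO arrays lay just below controls 1 and 2 and far below controls 3 and 4, so that the difference of -1.26 ± 0.44 had a wide error.

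Other members of the list varied in the same way. Ccl22, a chemokine of mature DCs, differed by -1.94 ± 0.60, Socs2, an inhibitor of cytokine signalling, by -1.85 ± 0.66 and Fscn1, the actin bundler of mature DC dendrites, by -1.31 ± 0.39, each without overlap. The co-stimulatory ligands of CD28 differed less: Cd80 lay at 10.02, 9.92, 9.75 and 9.81 against 9.63, 9.41 and 9.56, and Cd86 at 10.64, 10.66, 10.58 and 10.57 against 10.62, 10.41 and 10.35. The Cd80 groups did not overlap (-0.34 ± 0.08), and the Cd86 groups did (-0.15 ± 0.07).

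Cytokine genes differed in a selective manner. Of 31 measured, 5 were wholly lower in p38-KO (3.6% of all genes were), namely Il6, Il12b, Il1a, Il10 and Osm, and 1 wholly higher, Tnfsf13b. The list median of -0.19 was -0.09 without controls 3 and 4. Because the promoters of cytokine genes are the sites where CD40-activated factors bind, those of 4 genes with large differences are shown from RefSeq on GRCm38.p6, the 250 bases before the start, with capitals for letters that match AP-1 (TGA and TCA around any 1 base) or NF-kB (GGG and TTTCC around any 2 bases) on either strand. No matches overlap.
Il12b: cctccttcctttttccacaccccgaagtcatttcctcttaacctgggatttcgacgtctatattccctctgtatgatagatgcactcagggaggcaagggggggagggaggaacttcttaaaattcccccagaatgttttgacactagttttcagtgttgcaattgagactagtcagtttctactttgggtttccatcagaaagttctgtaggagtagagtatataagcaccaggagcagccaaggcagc
Il1a: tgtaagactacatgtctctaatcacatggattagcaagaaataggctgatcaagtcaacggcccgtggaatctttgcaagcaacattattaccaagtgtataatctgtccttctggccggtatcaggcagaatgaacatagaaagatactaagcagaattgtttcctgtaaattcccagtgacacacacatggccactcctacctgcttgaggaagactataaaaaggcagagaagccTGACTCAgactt
Cxcl2: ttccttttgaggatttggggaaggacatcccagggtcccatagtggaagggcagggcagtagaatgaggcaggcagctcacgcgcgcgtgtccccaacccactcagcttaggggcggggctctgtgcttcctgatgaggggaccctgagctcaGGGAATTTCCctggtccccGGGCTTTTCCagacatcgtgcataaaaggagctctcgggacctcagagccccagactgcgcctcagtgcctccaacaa
Il6: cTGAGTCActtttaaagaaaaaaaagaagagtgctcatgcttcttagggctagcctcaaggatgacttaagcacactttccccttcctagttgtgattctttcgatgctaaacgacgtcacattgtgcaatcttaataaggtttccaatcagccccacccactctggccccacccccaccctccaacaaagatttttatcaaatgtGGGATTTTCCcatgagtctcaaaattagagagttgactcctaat
The windows are chr11:44399813-44400062 (plus strand) for Il12b, chr2:129309973-129310222 (minus strand) for Il1a, chr5:90903649-90903898 (plus) for Cxcl2 and chr5:30012864-30013113 (plus) for Il6. NF-kB letters begin 97 and 78 bases before the start of Cxcl2 and 44 bases before that of Il6, and AP-1 letters begin 12 bases before the start of Il1a and 249 bases before that of Il6. Of all 32851 windows of this length, 1.41% hold the NF-kB letters and 6.75% the AP-1 letters. The Il12b window holds neither. Windows of other genes with small p were searched but are not shown. On the lower side, those of Cd63, Sqstm1, Rasgef1b, Litaf, Arf4, Suco, Ets2 and Rnf19b held neither, and that of Dusp5 held NF-kB letters. The windows searched for genes on the higher side, such as Plcb4 and Sirt3, held neither. Whether these letters go with the p38 differences was not tested.

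Il12b encodes the p40 subunit shared by interleukins that polarise T helper cells. It lay at 8.22, 8.22, 9.47 and 9.10 in the controls and at 6.99, 6.77 and 6.93 in the p38-KO arrays. The p38-KO arrays were tight and wholly lower, with a difference of -1.86 ± 0.33 (3.62-fold, limma adjusted p = 0.340) that was -1.32 without controls 3 and 4. Il12a, which encodes the partner chain p35, lay at 3.25 to 3.75 in the controls and at 3.31 to 4.00 in p38-KO. Il23a lay at 3.27 to 3.55 over the 7 arrays and differed by -0.01 ± 0.07. Both genes were below the median over genes of every array (4.33 to 4.36), where a lower level might not show.

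Il6, a cytokine with an AU-rich mRNA, lay at 4.95, 4.78, 6.10 and 6.64 against 3.50, 2.65 and 3.75. The difference was -2.32 ± 0.52 (limma adjusted p = 0.397), and its p38-KO values also lay below the median over genes of their arrays. Il1a lay at 5.65, 5.46, 6.10 and 6.44 against 4.64, 4.49 and 4.71 (-1.30 ± 0.23). Il1b, its relative with the same receptor, did not follow: it lay at 11.56, 11.65, 11.29 and 11.54 against 11.56, 11.43 and 11.57, with overlapping groups. Tnf lay at 9.24, 9.66, 10.25 and 9.81 against 9.27, 9.26 and 9.49, and its groups overlapped as well. The anti-inflammatory Il10 lay at 4.94, 5.20, 4.29 and 4.60 against 4.24, 3.74 and 3.94. In contrast to Il6 and Il12b, Il10 was lower in controls 3 and 4 than in controls 1 and 2.

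Chemokine genes were lower in more members. Of 26 measured, 10 were wholly lower in p38-KO (3.6% of all genes were) and 1, Ccl6, wholly higher (3.89% of all genes). The median was -0.36 (-0.27 without controls 3 and 4), and 7 of the 26 were called lower with the spread of all 34 arrays, against 0.685% of all genes. Cxcl2, which attracts neutrophils, lay at 8.74, 7.98, 8.70 and 8.40 against 7.48, 6.95 and 6.89 (-1.35 ± 0.23, limma adjusted p = 0.339). Ccl2, which attracts monocytes, lay at 7.96, 8.02, 8.37 and 8.49 against 7.13, 7.32 and 7.16 (-1.01 ± 0.14, adjusted p = 0.205). These 2 had the smallest p of the list, and without controls 3 and 4 their differences were -1.26 and -0.79. Cxcl10, an interferon-induced attractant of T cells, lay at 7.63, 7.83, 9.42 and 9.18 against 6.24, 5.77 and 6.79. Cxcl16 and Cxcl1 differed by -0.78 ± 0.14 and -0.93 ± 0.23.

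Genes with AU-rich elements in their mRNAs, whose stability p38 is known to control, overlap with these lists. Of 29 measured, 8 were wholly lower (Il6, Il10, Il1a, Il12b, Cxcl1, Cxcl2, Ccl2 and Fos), against 3.6% of all genes. Wholly higher were 0, against 3.89%. The median of -0.21 was -0.25 without controls 3 and 4 and -0.23 without controls 1 and 2. All 8 apart from Fos are cytokines or chemokines. Others known for such elements differed little, among them Ptgs2 (-0.19 ± 0.19), Zfp36 (-0.11 ± 0.05), Ier3 (0.23 ± 0.18) and Csf2 (-0.06 ± 0.20).

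The CD40 receptor's own machinery was lower in part. Of 14 proximal genes, 6 were wholly lower, against 3.6% of all genes, and 0 higher: Cd40 itself, the adaptors Traf1 (-0.46 ± 0.11) and Traf6 (-0.22 ± 0.09), the ubiquitin ligases Birc2 (-0.40 ± 0.12) and Birc3 (-0.29 ± 0.07), and Tank (-0.46 ± 0.09), a TRAF-binding regulator. The median of -0.19 was -0.10 without controls 3 and 4 and -0.34 without controls 1 and 2. NF-kB subunits and inhibitors had 14 of 15 means below the controls, against 10911 of all 22180 genes. Their median was -0.21 and 2 members were wholly lower, including Nfkbib (-0.47 ± 0.10), an inhibitor of NF-kB. Nfkb2, the subunit of the non-canonical pathway, differed by -0.46 ± 0.16 with overlap. Of 26 immediate-early genes, 4 were wholly lower, namely Ier5 (-0.42 ± 0.07), Csrnp1 (-0.40 ± 0.08), Atf3 (-0.34 ± 0.10) and Fos (-0.27 ± 0.08), and 1 wholly higher, Batf3. Their median was -0.15, with 17 of 26 means below the controls, and it was -0.26 without controls 3 and 4 and 0.02 without controls 1 and 2. Egr1 (0.09 ± 0.09), Ier2 (0.04 ± 0.07) and Jun (0.21 ± 0.15) had overlapping groups.

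Interferon-stimulated genes showed how much 2 arrays can set a mean. All 37 measured had a mean below the controls, against 10911 of all 22180 genes, and 10 were wholly lower, against 3.6% of all genes. The list median was -0.75. The mean signal of the list was 6.61 and 6.73 in controls 1 and 2, 8.52 and 7.94 in controls 3 and 4, and 6.38 to 6.69 in the p38-KO arrays. Without controls 3 and 4 the median was -0.10, and without controls 1 and 2 it was -1.49. Iigp1, an interferon-induced GTPase, lay at 4.58, 4.76, 8.67 and 7.85 against 3.63, 3.29 and 3.86. Oasl1, an antiviral regulator, lay at 5.25, 5.24, 8.24 and 7.94 against 4.63, 4.55 and 4.59. Both were wholly lower in p38-KO, but lay closer to controls 1 and 2 than these lay to controls 3 and 4. The part of the interferon genes' spread in other differences that are larger with controls 3 and 4, such as those of Cxcl10, Cd40 and Ccl22, was not tested.

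Markers of neutrophils were lower in the p38-KO arrays. In total sorted cells, fewer cells of a type and less RNA per cell cannot be told apart. All 20 neutrophil and granule genes had a mean below the controls, 10 were wholly lower (3.6% of all genes were) and the median was -1.13 (-0.87 without controls 3 and 4, -1.45 without controls 1 and 2). Their mean signal was 5.04 to 5.96 in the controls and 3.65 to 4.70 in the p38-KO arrays, with no overlap. S100a8 lay at 8.67, 8.18, 8.78 and 8.10 against 8.08, 7.43 and 5.97, and S100a9 at 8.95, 8.73, 9.14 and 8.63 against 8.60, 8.23 and 7.18. Both encode calprotectin subunits, and p38-KO array 3 was the lowest in each. Camp, an antimicrobial granule peptide, differed by -2.11 ± 0.57 and Ltf (lactoferrin) by -1.92 ± 0.49. Several cytokine and chemokine genes above, such as Cxcl2 and Il1a, are also expressed by neutrophils, and the part of these cells in those differences was not tested.

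Other cell markers differed less, and their counts stand against 3.6% of all genes wholly lower and 3.89% wholly higher. Of 27 macrophage and monocyte genes, 4 were wholly lower and 0 wholly higher, with a median of -0.29 and a mean signal of 7.13 to 7.63 in the controls and 6.90 to 7.25 in p38-KO; Timd4, a receptor of tissue macrophages, differed by -1.12 ± 0.26 and Csf1r by -0.05 ± 0.16. For 17 NK and innate lymphoid genes the mean signal was 5.78 to 6.08 in the controls and 5.27 to 5.96 in p38-KO, with 0 members apart. B-cell genes (16 measured) lay at 5.26 to 5.52 and 5.39 to 5.65, and T-cell genes (14 measured) at 4.71 to 4.96 and 4.74 to 4.85. The B-cell list had 2 members wholly higher, among them Cd79b (0.80 ± 0.23), and 1 wholly lower, Cxcr5 (-0.30 ± 0.10). The T-cell list had 1 member wholly higher, Cd5, and 1 wholly lower, Cd2.

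The make-up of DC subsets was described with the markers of each. Over all 7 arrays their counts stand against 3.6% of all genes wholly lower and 3.89% wholly higher. Of 26 genes of CD8+ DCs, the cross-presenting subset, 4 were wholly lower and 1 wholly higher, and the median was -0.01. Cd8a lay at 9.61, 9.72, 9.84 and 10.19 against 9.50, 9.18 and 8.95 and Ly75 (DEC-205) at 7.60, 7.48, 8.17 and 8.19 against 7.25, 7.04 and 6.89, both wholly lower, whereas Xcr1 (-0.10 ± 0.18), Irf8 (-0.06 ± 0.14) and Batf3 (0.25 ± 0.10), which define the subset, were not. Of 29 genes of CD8- DCs, 3 were wholly higher and 1 wholly lower, with a median of 0.12. Without controls 3 and 4 the median was -0.01, with 4 wholly higher and 7 lower, against 10.9% and 9.81% of all genes. Without controls 1 and 2 it was 0.37, with 13 higher and 2 lower, against 13.5% and 13.2% of all genes. Cd209a, a lectin of that subset, lay at 8.67, 8.65, 5.78 and 7.40 against 8.98, 9.07 and 9.01, with controls 3 and 4 as the low arrays. Of 18 plasmacytoid DC genes 2 were wholly higher, Cox6a2 (1.09 ± 0.29) and Cd300c (0.58 ± 0.23), and 1 wholly lower, the interferon regulator Irf7 (-1.40 ± 0.64). Their median was -0.12, with 12 of 18 means below the controls, and it was 0.07 without controls 3 and 4 and -0.37 without controls 1 and 2. Siglech, a defining marker, differed by 0.09 ± 0.25.

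**Figure D4:**
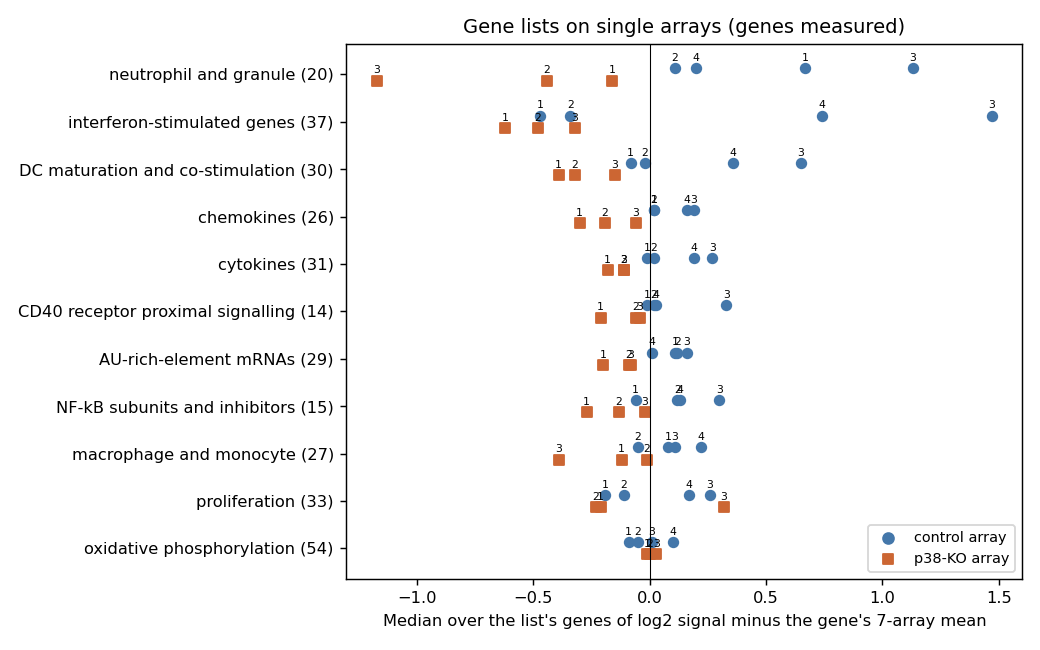
Median over the genes of each list of the log2 signal minus the gene's mean over the 7 arrays (x axis), for controls (circles) and p38-KO arrays (squares), with replicate numbers and the genes measured in parentheses. Neutrophil and maturation genes are lower on all 3 p38-KO arrays than on all 4 controls, whereas interferon-stimulated genes set controls 3 and 4 apart from the other 5 arrays.

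Metabolic and stress genes differed in some members, and their counts stand against 3.6% of all genes wholly lower and 3.89% wholly higher. Of 18 Nrf2 antioxidant genes, 6 were wholly lower, namely Gclc, Hmox1 (-0.65 ± 0.17), Txnrd1 (-0.36 ± 0.10), Gclm (-0.22 ± 0.10), Srxn1 (-0.15 ± 0.05) and Sod2 (-0.13 ± 0.04), and 2 wholly higher, Gpx4 (0.17 ± 0.06) and Cat (0.23 ± 0.10). The median was -0.14, and Nfe2l2, which encodes Nrf2, differed by -0.10 ± 0.10. In the unfolded protein response 8 of 23 were wholly lower, led in p by the chaperone Hspa5 (-0.23 ± 0.06), and 1 wholly higher, Atf6.

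Glycolysis genes had 5 of 20 wholly lower and 2 wholly higher, against 3.6% and 3.89% of all genes. Hk2, the inducible hexokinase, lay at 7.50, 7.51, 7.48 and 7.59 against 7.23, 7.06 and 7.04 (-0.41 ± 0.06), and Pfkfb3, which makes an activator of phosphofructokinase, differed by -0.88 ± 0.17. Ldha was wholly higher, by 0.18 ± 0.07. Of 54 oxidative phosphorylation genes 3 were wholly higher and 0 lower, with a median of 0.04. Their direction turned with the controls used: without controls 3 and 4, 26 were wholly higher and 0 lower (median 0.08; 10.9% and 9.81% of all genes), and without controls 1 and 2, 3 were wholly higher and 18 lower (median -0.05; 13.5% and 13.2% of all genes). None of 33 proliferation genes had groups apart; their median was -0.06.

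The question of which of these genes anti-CD40 itself moves can be set beside the second experiment, which shares no array with the first. There, 2 stimulated Rag1-KO arrays stood against 1 non-stimulated Rag1-KO array of the same strain, so these are values with no test. Of the 80 genes at least 2-fold lower in p38-KO without overlap, 54 (67.5%) were higher on both stimulated arrays than on the non-stimulated one, against 33.1% of all genes, and 10 were lower on both. Their median stimulation difference was 0.47, against -0.01 over all genes. Of the 11 genes on the higher side, 5 were higher and 3 lower on both stimulated arrays, with a median of 0.02.

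Single genes showed both kinds. Cd40 was 1.82 higher after stimulation on the log2 scale, Ccl22 1.54, Cxcl10 1.71, Il6 1.19 and Il12b 0.92, and all 5 were lower in p38-KO. Ccr7 was 0.47 higher, Cd274 0.72 and Cd63 0.51. Gclc (0.24), Plcb4 (0.07) and Cxcl2 (-0.07) differed little in the mean between stimulated and non-stimulated arrays, although they were among the largest p38 differences. The 2 stimulated arrays lay on both sides of the non-stimulated one for Gclc (7.06 and 7.77 against 7.17) and Cxcl2 (7.97 and 8.47 against 8.29). Ets2 was 0.69 lower after stimulation and lower in p38-KO as well. By list, 24 of 30 maturation genes and 35 of 37 interferon-stimulated genes had higher means after anti-CD40, with medians of 0.59 and 0.49, as did 18 of 20 neutrophil genes, with a median of 0.65; over all genes 10656 of 22180 did.

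**Figure D5:**
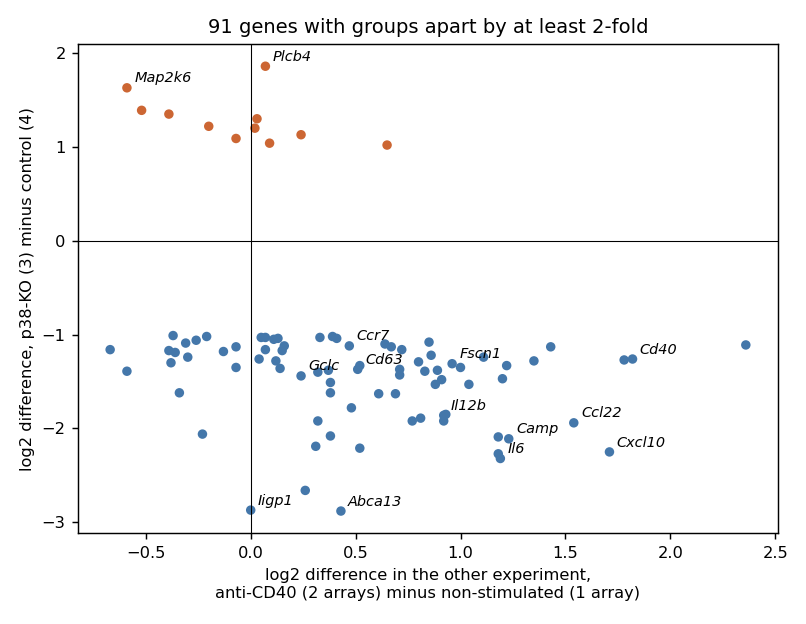
The 91 genes that differ by at least 2-fold without overlap between p38-KO and control arrays: log2 difference in the second experiment (2 anti-CD40 arrays minus 1 non-stimulated array, x axis) against the p38-KO minus control difference (y axis). Of the 80 genes below 0, 65 lie to the right of 0, and the 11 genes above 0 lie on both sides of 0 on the x axis, between -0.59 and 0.65.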

How the data were processed

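The deposited values are log2 signals of 41155 probe sets, normalized by the authors; the submitters' processing notes list RMA and Partek 6.6. After the 5th decimal, 100.0% of probe sets have the same digits over the 7 arrays of the first experiment, and 1.01% do so when the second is added, so levels were compared within an experiment only. Of the probe sets, 23521 had exactly 1 gene symbol, and the one with the highest mean over the 7 arrays stood for its gene (22180 genes). RMA shares strength between arrays, and exact ties are frequent: 60.1% of genes had the same value on 2 or more arrays.

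The 7 arrays were fitted by group means in limma 3.58.1 (R 4.3.3; lmFit, then eBayes), with Benjamini-Hochberg adjustment over all genes; the code was tested on simulated data. Groups do not overlap when every array of one lies above every array of the other. Alternatives were other normalizations, tests, spreads and left-out arrays. Named are the p38 kinases, the 15 smallest p in each direction and 2 per list (44 lists, 930 of 1030 entries measured). Predicted genes, such as those with Gm or Rik names, were left out of the 15. Other genes were named after their values were seen. Members and lists were chosen with earlier results of these data known. Precision is limited by the number of arrays.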

Additional observations from a re-analysis of the deposited data

Results flagged for a closer look

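Among the 109 named genes, 6 had 1 control array far from the other 3 (a gap over range above Dixon's critical value; chance gives about 1 in 20 groups). In control 1, Litaf was highest at 7.19, Mapkapk3 highest at 6.73 and Batf3 lowest at 8.42. In control 2, Csrnp1 was highest at 8.78 and Cd2 lowest at 4.78. In control 3, Hspa5 was highest at 10.24.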

How the results depend on the processing

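Limma called 0 genes as deposited, after quantile normalization, cyclic loess or median centring, with a replicate block (1803 genes at an unadjusted p under 0.05), among genes above the median, with trend and robust prior, array weights or an ordinary t statistic, over every probe set (3082 at p under 0.05) and without any single array (1233 to 2015 at p under 0.05, of them 634 to 926 lower). Calls appeared under 3 settings: 1 gene, higher, with the spread pooled with the second experiment; 209 (57 higher, 152 lower) with that of all 34 arrays; and 85 (29 higher, 56 lower; 3152 at p under 0.05, 1594 of them lower) without controls 1 and 2, a setting chosen after seeing the data, as was leaving out controls 3 and 4, which called 0. Of the 85, 35 were also among the 209. Fewer arrays leave more genes without overlap by construction: 2181 to 3706 (1026 to 1677 lower) without 1 array, 4596 (2176 lower) without controls 3 and 4 and 5930 (2934 lower) without controls 1 and 2; cyclic loess gave 1275 lower. Those of at least 2-fold were 57 to 125 lower and 8 to 19 higher without 1 array, 39 and 5 without controls 3 and 4, and 268 and 75 without controls 1 and 2. Mapk13 reversed without controls 3 and 4 (0.14), without control 3 (0.06) and without p38-KO array 1 (0.13), its range without 1 array being -0.25 to 0.13, Arf4 on its other probe set (0.02) and Ccnd2 without controls 3 and 4 (0.04); the cause was not tested. Without controls 1 and 2 the medians were -0.83 for maturation genes and -0.33 for cytokines; among genes above the median gene they were -0.60 for cytokines and -0.57 for chemokines, and the first component held 54.8%. Without 1 array the medians ran from -0.59 to -0.35 (maturation), -0.27 to -0.11 (cytokines), -0.51 to -0.29 (chemokines), -0.28 to -0.12 (CD40 machinery), -1.0 to -0.42 (interferon) and -1.36 to -0.73 (neutrophil). Replicate numbers were not taken as pairs in the main fit. Between genotypes, deviations of arrays with the same number correlated at 0.0936, 0.0975 and 0.162. Those of arrays with different numbers correlated lower, at -0.161 to 0.0758, and whether the numbers mark pairs is not known. Of 1994 values of the 105 other named genes under alternatives, 2 reversed and 55 passed the threshold.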

Other observations

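Part of these genes differed in the same direction in arrays that share none with the first experiment. DCs labelled Mst1/2-/- (deletion of the Hippo kinases Mst1 and Mst2) and WT were set beside the 80 genes lower by at least 2-fold in p38-KO, as values with no test. The titles of these arrays name neither a Rag1 deletion nor anti-CD40, so the 2 knockouts were not compared under like conditions. In total DCs (4 WT, 3 Mst1/2-/- arrays) 25 of the 80 were wholly lower in Mst1/2-/- (31.2%, against 5.49% of all genes). Wholly higher were 0, against 8.27% of all genes. In sorted CD8+ DCs (4 against 4) 25 were wholly lower (31.2%, against 3.03%) and 1 wholly higher (1.25%, against 3.3%). In CD8- DCs (4 against 4) 21 were wholly lower (26.2%, against 5.46%) and 8 wholly higher (10.0%, against 6.52%). Of the 11 genes, 3 were wholly higher in each comparison (27.3%, against 8.27%, 3.3% and 6.52%). Wholly lower were 1, 0 and 1 of the 11, against 5.49%, 3.03% and 5.46%. Their means were lower in 6, 4 and 7, against 49.3%, 48.5% and 49.6% of all genes. Over all 22180 genes the differences were only weakly related, with Pearson's r of 0.12 in total, 0.12 in CD8+ and 0.02 in CD8- DCs (across genes, which are not independent).

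Single genes showed the likeness. Ccr7 differed by -1.53 in total, -2.34 in CD8+ and -1.86 in CD8- DCs, Cd63 by -1.37, -2.23 and -0.52, Fscn1 by -1.31, -1.38 and -0.81, Cd274 by -1.08, -1.13 and -1.10 and Socs2 by -1.66, -2.10 and -1.59, each without overlap. Gclc differed by -0.88 and -1.92 in total and CD8+ DCs without overlap and by -0.10 in CD8- DCs with overlap. Plcb4 was higher by 1.68, 0.75 and 2.44, again without overlap. Map2k6, also higher in p38-KO, differed by 0.42, 0.01 and -0.53, wholly higher in total and wholly lower in CD8- DCs. Other genes of the 80 overlapped in all 3 comparisons, such as Iigp1 (-0.13, -0.48 and 0.18) and Camp (0.21, 0.50 and -0.06). Cxcl10 differed by -0.32, -1.14 and -0.11 and Rsad2, an antiviral gene, by -0.54, 0.11 and -0.66, with Cxcl10 wholly lower in CD8+ DCs and Rsad2 in CD8- DCs.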
